A study of Mus musculus with 28 samples.

Results

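The expression of 7 Rab GTPase genes, Rab1a, Rab3a, Rab3c, Rab8a, Rab11a, Rab11b and Rab14, was examined in 28 single neurons from M1, the primary motor cortex, of mice of the CD1 stock. The genes were chosen by name from the deposited table, which listed 1024 genes, and all 7 were present under these symbols. The other listed symbols of Rab and a digit were Rab11fip2, Rab11fip3 and Rab3gap2, which encode proteins that bind or regulate Rabs. Cells of M1 had been transfected on embryonic day 15 by in utero electroporation with 3 plasmids: pCAGIG, from which every electroporated cell makes GFP, pHSE-FLPo, in which a heat shock response element drives the recombinase FLPo, and pFRT-RFP, a reporter that FLPo turns on. A cell with RFP is therefore one in which the heat shock element had been active. All of the neurons carried these plasmids and were GFP-positive. The dams had been given ethanol (EtOH) in phosphate-buffered saline (PBS), or PBS alone, intraperitoneally each day on embryonic days 16 and 17, and neuronal contents were collected on postnatal day 30. After ethanol, 15 RFP-positive and 7 RFP-negative neurons were sampled; 6 neurons, all RFP-negative, came from the PBS controls and are called PBS neurons. Ethanol was given at 1.0 g/kg or at 4.0 g/kg, and the labels do not tell which neuron came from a dam given which dose. No RFP-positive PBS neurons were among the samples, so reporter state could be compared only after ethanol.

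Rab proteins are small GTPases that act as switches on membranes. In the GTP-bound form a Rab sits on a vesicle or organelle and recruits effectors such as tethers, motors and fusion factors; GTPase-activating proteins (GAPs) end that state, and GDP dissociation inhibitors (GDIs) keep the inactive form in the cytosol. Each family member marks its own steps of membrane traffic, and in neurons these steps supply axons and dendrites with membrane, recycle receptors and prepare synaptic vesicles for release.

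The 7 genes are close relatives, and the libraries were read as single reads of 51 cycles, so the coding sequences of the GENCODE M21 transcripts (GRCm38) were compared to see how well reads of 51 bases can be told apart. The lines give, for each gene, 51 coding bases around the phosphate-binding loop, the nucleotide-binding motif shared by the whole family, with the 24 bases of the loop in capitals.
Rab1a: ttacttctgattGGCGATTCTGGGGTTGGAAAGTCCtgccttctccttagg
Rab3a: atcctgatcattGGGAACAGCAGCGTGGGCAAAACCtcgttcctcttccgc
Rab3c: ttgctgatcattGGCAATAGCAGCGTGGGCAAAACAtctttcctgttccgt
Rab8a: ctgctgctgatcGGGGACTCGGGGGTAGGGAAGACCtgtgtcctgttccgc
Rab11a: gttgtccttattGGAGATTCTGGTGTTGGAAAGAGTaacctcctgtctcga
Rab11b: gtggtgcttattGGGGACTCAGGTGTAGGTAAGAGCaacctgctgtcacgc
Rab14: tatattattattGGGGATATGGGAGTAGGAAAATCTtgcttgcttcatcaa
Even in this conserved stretch Rab3a and Rab3c differed at 8 of the 51 bases and Rab11a and Rab11b at 11 of them, and these were the most similar pairs. Over the aligned coding sequence Rab3a and Rab3c were 76.3% identical and Rab11a and Rab11b 75.8%. The longest run of identical coding bases between any 2 members was 25, between Rab1a and Rab3c. No window of 51 bases in the chosen transcript of a member occurred in a transcript of another member.

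Other genes were a larger source of shared sequence than the members themselves. Of the 6059 windows of 51 bases in Rab11b, 847 (13.98%) occurred in transcripts of other genes, 553 of them in the processed pseudogene Rab11b-ps2. For Rab11a the share was 2.49%, all with the microRNA gene Gm47308 that lies in its exon. It was 1.00% for Rab8a and 0.81% for Rab3c, and no window of Rab1a, Rab3a or Rab14 was shared. On the opposite strand, exons of Rab11b overlap the noncoding gene Gm17251 by up to 308 bases and exons of Rab3a overlap Mpv17l2 by 29 bases. Neither library kit records the strand, so such reads cannot be told apart, and values of Rab11b are the least certain of the 7.

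The reporter of this study is driven by a heat shock element, so the promoter windows of the members (RefSeq, GRCm38.p6, 250 bases before to 50 after each start site) were searched for its paired units. All 7 members were matched, with 8 windows in all. The pairs GAANNTTC and TTCNNGAA, which differ in the direction of their units and each read the same on both strands, were present in 7.86% and 8.52% of the 32851 windows of this length. Among the members, Rab3a held GAANNTTC at position -150 relative to its start site (plus strand, chr8:70754542-70754571), and Rab11a held TTCNNGAA at position -15 (minus strand, chr9:64737753-64737782). The chromosome intervals are those of the whole stretches printed here, in which the motif is in capitals.
Rab3a: atcagccaatgGAAACTTCatgcctcccta
Rab11a: gggctggggccTTCCGGAAgtgacgcatac
The forms with a further unit, GAANNTTCNNGAA and TTCNNGAANNTTC, which are reverse complements of each other, were found on either strand in 0.603% of all windows and in 0 of the members' windows. A match in these letters is a description of the sequence only.

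Each gene has 1 deposited value per neuron, on a logarithmic scale whose base is assumed here to be 2. All 28672 values lay between 1.00 and 13.2, and sequencing depth is unknown because no counts were given. The histogram of all values has a minimum between its modes at the bin from 4 to 4.25, so a value over 4 is called above the trough here, and a second minimum between modes lies at 8. A value below 4 is not taken as absence of a transcript. Of the 196 member values, 86 (43.9%) lay above the trough, against 33.7% of the values of all genes. A set of 4 neurons stood apart in how rarely their values equalled those of others, namely PBS neuron 6, number 1 of the RFP-negative EtOH neurons and numbers 1 and 2 of the RFP-positive ones, and results are given without them where that mattered. The pyramidal neuron markers Nrgn and Mef2c, the 2 of 9 listed that were in the table, gave 11 of 12 values above the trough in PBS neurons, 13 of 14 in RFP-negative EtOH neurons and 28 of 30 in RFP-positive ones.

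No label names the animal of a neuron, so each exposure group counts as 1 sample and no p-value is given. Errors are SDs across neurons, which share animals to an unknown extent.

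**Figure D1:**
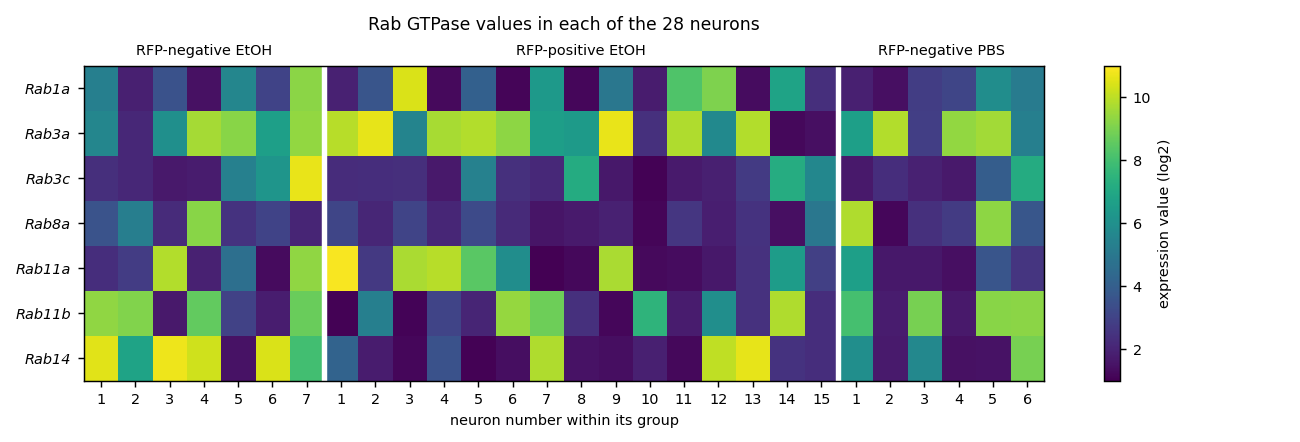
Deposited values (colour, log2) of the 7 Rab genes (rows) in each of the 28 neurons (columns, numbered within their group). Rab3a is bright in 23 of 28 neurons and Rab8a in 5, and the bright cells of the other genes are scattered over different neurons.

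Every member was above the trough in some neurons of each group and below it in others. Rab3a had the highest mean over the 28 neurons, 7.19 ± 3.02, and was above the trough in 23 of them. Rab11b followed at 5.18 ± 3.46 (14 neurons), Rab14 at 4.92 ± 3.84 (13 neurons), Rab11a at 4.48 ± 3.44 (11 neurons), Rab1a at 4.10 ± 2.76 (12 neurons), Rab3c at 3.44 ± 2.41 (8 neurons) and Rab8a at 3.29 ± 2.38 (5 neurons). The gaps between neighbours in this order were 0.15 to 0.66 except for the gap of 2.01 below Rab3a, and all of them were smaller than the SDs. Comparing levels between genes assumes that the values are per length, as Cufflinks reports them, which the labels do not state. By the size of its mean Rab3a ranked 48th of the 1024 genes and Rab8a 668th. By its SD over the neurons Rab14 ranked 2nd of all genes, Rab11b 43rd and Rab11a 44th.

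**Figure D2:**
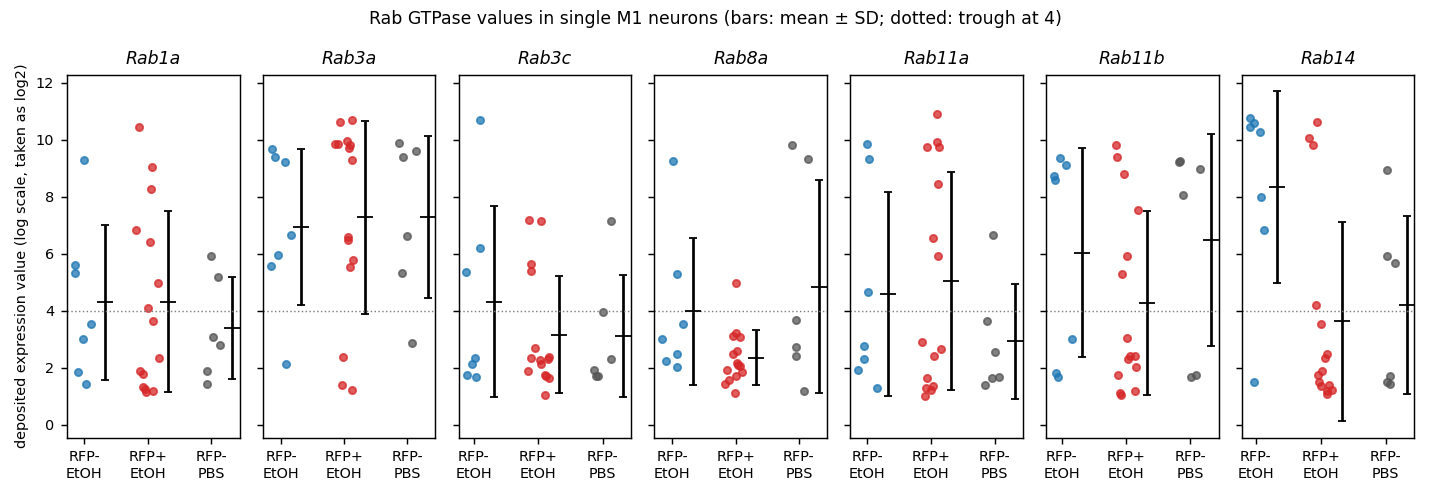
Values of each Rab gene (log2) in the 3 groups, 1 point per neuron, with mean ± SD as black bars and the trough at 4 dotted. For Rab14 6 of 7 points of the first group, 4 of 15 of the second and 3 of 6 of the PBS group exceed 4, and the groups overlap for every gene.

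Rab14, which acts between the Golgi and endosomes, had the largest differences between group means among the members in both comparisons with RFP-negative EtOH neurons. In the 7 RFP-negative EtOH neurons its values ran from 1.49 to 10.7 with a median of 10.3, in the 15 RFP-positive EtOH neurons from 1.07 to 10.6 with a median of 1.88, and in the 6 PBS neurons from 1.45 to 8.94 with a median of 3.69. RFP-negative EtOH neurons were thus high apart from neuron 5, whose value was 1.49, while most RFP-positive neurons were low and 4 were not: number 1 at 4.20, number 7 at 9.83, number 12 at 10.1 and number 13 at 10.6. The share above the trough was 85.7% (95% exact Clopper-Pearson interval 42.1 to 99.6%) among RFP-negative EtOH neurons, 26.7% (7.79 to 55.1%) among RFP-positive ones and 50% (11.8 to 88.2%) in the PBS group. These intervals cover counting error only, and they overlap. Above 8 lay 4 of 7, 3 of 15 and 1 of 6 neurons, so the single PBS value in the highest mode was that of neuron 6. The gene (ENSMUSG00000026878) lies on the minus strand of chromosome 2 from 35180205 to 35201120 (GRCm38).

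Rab11a and Rab11b, 2 GTPases of recycling endosomes that return receptors to the cell surface, were above the trough in 11 and 14 of the 28 neurons, and together in 4 of them. Rab11a (chromosome 9, 64715299 to 64737758, minus strand) ran from 1.30 to 9.83 with a median of 2.76 in RFP-negative EtOH, from 1.02 to 10.9 with a median of 2.91 in RFP-positive EtOH, and from 1.40 to 6.65 with a median of 2.10 in PBS neurons. It was above the trough in 3 of 7, 7 of 15 and 1 of 6 neurons, and all of its 7 values over 8 were in EtOH neurons, 2 of them RFP-negative and 5 RFP-positive. Rab11b (chromosome 17, 33742484 to 33760530, minus strand) ran from 1.67 to 9.35 with a median of 8.59, from 1.05 to 9.80 with a median of 2.42, and from 1.69 to 9.26 with a median of 8.50 in the same order of groups. It was above the trough in 4 of 7, 6 of 15 and 4 of 6 neurons. In the RFP-negative groups every Rab11b value was either below the trough or above 8, whereas 3 RFP-positive neurons lay between.

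Both genes were above the trough in 4 of the 28 neurons, Rab11a alone in 7, Rab11b alone in 10 and neither in 7. At least 1 of the pair was above it in 4 of 6 PBS neurons, 6 of 7 RFP-negative EtOH neurons and 11 of 15 RFP-positive ones. Rab11a alone was found in 2 RFP-negative EtOH, 5 RFP-positive EtOH and 0 PBS neurons. The count of 0 of 6 leaves room for a share as high as about 50%. This is the approximate 95% upper limit of 3 divided by the number of neurons, which is rough for so few. Pearson's r between the pair was -0.25 over the 28 neurons, and it was -0.14 among the 24 neurons without those that stood apart.

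**Figure D3:**
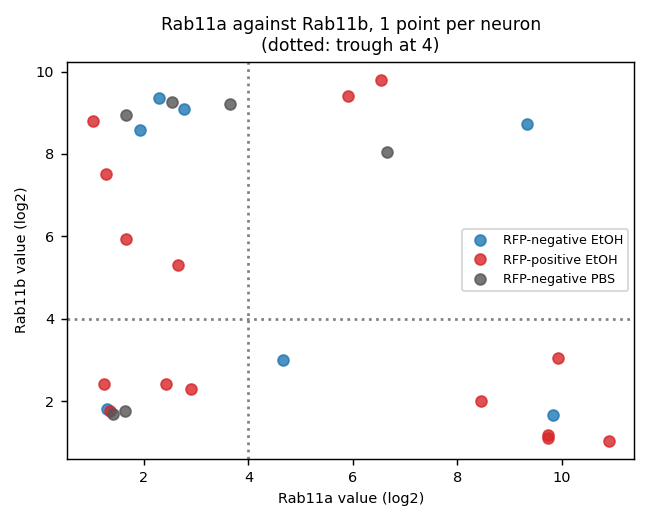
Rab11b value against Rab11a value (both log2), 1 point per neuron, coloured by group, with the trough at 4 dotted on both axes. Of the 28 neurons 4 lie in the upper right quadrant, where both genes are above the trough, and 17 have only 1 of the pair above it.

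Rab3a and Rab3c bind synaptic vesicles and take part in regulated release. Rab3a (chromosome 8, 70754679 to 70758677, plus strand) ran from 2.12 to 9.66 with a median of 6.64 in RFP-negative EtOH, from 1.22 to 10.7 with a median of 9.29 in RFP-positive EtOH, and from 2.87 to 9.86 with a median of 8.0 in PBS neurons. Only 1, 3 and 1 neurons of these groups were below the trough: PBS neuron 3, number 2 of the RFP-negative EtOH neurons and numbers 10, 14 and 15 of the RFP-positive ones. Above 8 lay 3 of 7, 8 of 15 and 3 of 6 neurons. Rab3c (chromosome 13, 110054187 to 110280996, minus strand) was low in most neurons, with medians of 2.35, 2.30 and 2.12 and highest values of 10.7, 7.18 and 7.13. It was above the trough in 3 of 7, 4 of 15 and 1 of 6 neurons, and RFP-negative EtOH neuron 7 held its only value over 8. Of the 5 neurons with low Rab3a, 2 had Rab3c above the trough, namely RFP-positive EtOH neurons 14 and 15.

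Rab1a, which acts in transport from the endoplasmic reticulum to the Golgi, and Rab8a, which directs vesicles from the Golgi to the plasma membrane, were low in most neurons. Rab1a (chromosome 11, 20201432 to 20226856, plus strand) had medians of 3.52, 3.65 and 2.95 in RFP-negative EtOH, RFP-positive EtOH and PBS neurons, with ranges of 1.43 to 9.27, 1.14 to 10.4 and 1.43 to 5.91. It was above the trough in 3 of 7, 7 of 15 and 2 of 6 neurons, and its 4 values over 8 were all in EtOH neurons. Rab8a (chromosome 8, 72161200 to 72183904, plus strand) had medians of 3.0, 2.09 and 3.19, with ranges of 2.03 to 9.23, 1.13 to 4.97 and 1.17 to 9.81. It was above the trough in 2 of 7, 1 of 15 and 2 of 6 neurons: RFP-negative EtOH neurons 2 and 4, RFP-positive EtOH neuron 15, and PBS neurons 1 and 5.

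After ethanol, the reporter comparison asks how neurons that had activated the heat shock reporter differ from those that had not. For Rab14 the RFP-positive mean was 3.63 ± 3.50 (SD, n = 15) and the RFP-negative mean 8.33 ± 3.37 (SD, n = 7), a difference of -4.70, larger than either SD. In absolute size this difference ranked 1st of the 1024 genes. It was the only member whose means differed by at least 2 log units, a fold of 4 if the base is 2. Rab11b, Rab8a and Rab3c had lower means in RFP-positive neurons by less than their pooled SDs, with differences of -1.77, -1.62 and -1.15. Rab11a, Rab3a and Rab1a differed by 0.46, 0.34 and 0.02.

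By the same rule 5.08% of all genes were lower by at least 2 in RFP-positive neurons and 6.25% higher, against 1 of 7 members lower and 0 of 7 higher. The median difference of the members was -1.15 and that of all genes 0.31. Of the members 3 had a higher and 4 a lower mean, and of all genes 60% and 40%. Scaling each neuron to a common upper quartile moves the difference of every gene by the same amount, here -0.51, and so leaves ranks as they are. After it 0 members had a higher mean and 3 were lower by at least 2, beside 42.7% and 8.59% of all genes. Rab14 was also the lowest of all genes when medians were compared, and it was 112th from the lowest, at -1.88, when arithmetic means of unlogged values were compared. It was 5th from the lowest among the 17 neurons with Mbp, a myelin marker, below the trough. Leaving out single neurons gave Rab14 differences of -5.84 to -4.30. The count of 3 members with a higher mean was 1 without the neurons that stood apart and also without RFP-negative EtOH neuron 2 or neuron 6. The count of 1 member lower by at least 2 was 2 without RFP-negative EtOH neuron 3, 5 or 6, or without RFP-positive EtOH neuron 6, 7 or 14.

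The comparison of RFP-negative EtOH with PBS neurons asks how ethanol exposure differs from the injection control in neurons without reporter activity. The RFP-negative EtOH neurons serve in the reporter comparison as well, so a high level in those neurons enters both. Rab14 had a mean of 8.33 ± 3.37 (SD, n = 7) against 4.20 ± 3.12 (SD, n = 6), a difference of 4.13, the 2nd highest of all genes and larger than either SD. The differences of Rab11a, Rab3c and Rab1a were 1.67, 1.19 and 0.90, and those of Rab8a, Rab11b and Rab3a were -0.88, -0.45 and -0.34. All 6 were smaller than their pooled SDs. From the highest, Rab14 ranked 141st with arithmetic means, 26th without neurons with Gad1 above the trough and 99th without those with Mbp above it.

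By the rule of 2 log units 8.11% of all genes were higher and 11.3% lower in these EtOH neurons, against 1 of 7 and 0 of 7 members. The median was 0.90 for the members and -0.06 for all genes. Of the members 4 had a higher and 3 a lower mean, against 48.5% and 51.5% of all genes, and after upper quartile scaling, a shift of 0.55 for every gene, 6 members and 63.3% of all genes had a higher mean. Without PBS neuron 5 all 7 members had a higher mean. The Rab14 difference was between 3.58 and 5.27 without any single neuron, and 2 members were higher by at least 2 without RFP-negative EtOH neuron 1, 4 or 6 or PBS neuron 1. Oligodendrocyte marker Mbp was above the trough in 1 of 7 EtOH and 4 of 6 PBS neurons. Summed Slc1a2 and Aldoc, the 2 of 5 astrocyte markers measured, ran from 3.06 to 10.6 in EtOH and from 3.90 to 14.5 in PBS neurons. Among the 6 EtOH and 2 PBS neurons with Mbp below the trough, the Rab14 difference was 2.16; the part of these markers in it was not tested further.

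The comparison of RFP-positive EtOH with PBS neurons combines reporter activity and exposure. For Rab8a the mean was 2.36 ± 0.96 (SD, n = 15) against 4.85 ± 3.74 (SD, n = 6) in PBS neurons, a difference of -2.49. This difference rests on PBS neurons 1 and 5, at 9.81 and 9.31. It was -1.50 without the first and -1.60 without the second of them. Rab11b differed by -2.22, with means of 4.27 ± 3.22 and 6.49 ± 3.71. Rab11a differed by 2.12, with means of 5.05 ± 3.82 and 2.92 ± 2.01. The Rab11b and Rab11a differences were smaller than their pooled SDs of 3.36 and 3.44. The Rab8a difference exceeded its pooled SD of 2.09 but was smaller than its SD of 3.74 in PBS neurons.

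Rab1a, Rab3c, Rab3a and Rab14 differed by 0.92, 0.04, -0.01 and -0.57. The Rab14 difference was 0.47 without the neurons that stood apart and 1.24 with arithmetic means. Background shares were 4.3% of genes higher and 5.37% lower by at least 2, against 1 of 7 and 2 of 7 members, while 56.5% of genes and 3 of 7 members had a higher mean and 43.5% of genes and 4 of 7 members a lower one. The median was -0.01 for the members and 0.26 for all genes. The count of lower members was 0 without PBS neuron 1 or 5, and 1 without PBS neuron 3 or 6 or RFP-positive EtOH neuron 1, 3 or 9. The count of higher members was 0 without RFP-positive EtOH neuron 1, 3, 4, 5 or 9 or PBS neuron 2, 3 or 4. In this comparison too Mbp exceeded the trough in 4 of 6 PBS and 4 of 15 EtOH neurons, and its part in the Rab values was not tested.

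**Figure D4:**
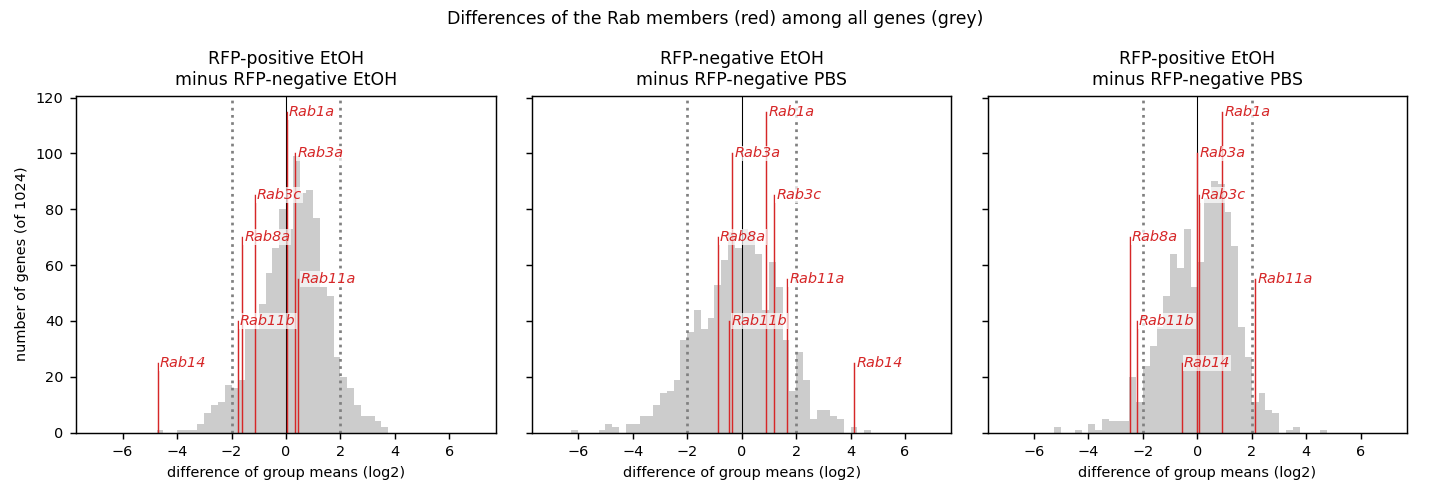
Histograms of the difference of group means (log2) of all 1024 genes for the 3 comparisons, in grey, with each Rab gene marked by a red line whose height has no meaning and with -2 and 2 dotted. Rab14 lies at -4.70, 4.13 and -0.57, and the other members lie between -2.49 and 2.12.

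The 3 groups overlapped for each of the 7 members in every comparison. Over all genes the groups did not overlap for 0% of genes in both comparisons with RFP-positive neurons and for 0.488% in the comparison of RFP-negative EtOH with PBS neurons.

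The number of members above the trough in a neuron ran from 1 to 6. It averaged 3.86 ± 1.07 in RFP-negative EtOH (range 3 to 6), 2.73 ± 0.96 in RFP-positive EtOH (1 to 4) and 3.0 ± 1.90 in PBS neurons (1 to 5). RFP-positive neurons thus had the lowest mean number of members above the trough, but it differed from the PBS mean by less than either SD. Rab14, above the trough in 6 of 7, 4 of 15 and 3 of 6 neurons in the same order, is part of this count. The number of all genes above the trough was highest in RFP-positive neurons. Its means were 360 ± 47.4 there, 316 ± 33.3 in RFP-negative EtOH and 341 ± 54.3 in PBS neurons. RFP-negative EtOH neuron 7 had 6 of the 7 members above the trough, all but Rab8a. It had Gad1, the interneuron marker, at 8.0, and 291 genes above the trough, below the mean of its group. RFP-positive EtOH neuron 10 had only Rab11b above the trough, and PBS neurons 2 and 4 only Rab3a.

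The 21 pairs had a median Pearson's r of 0.03, with 12 pairs above 0, and the 523776 pairs of all genes had a median of -0.01. The highest r among the members were 0.31 for Rab8a with Rab11b and 0.31 for Rab11b with Rab14, and the lowest was -0.37 for Rab3a with Rab11b. The middle 95% of all gene pairs lay between -0.33 and 0.44. Rab11b and Rab14 were both above the trough in 9 neurons, Rab11b alone in 5 and Rab14 alone in 4. Every one of the 28 points of such a correlation shares its library's depth and its group across genes, and the values are given as a description.

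For each member the 3 genes with the highest Pearson's r over the 28 neurons were taken from the whole table. The highest values belonged to Rab8a and Rab3c, which were high in few neurons. Rab8a had an r of 0.86 with Gyg, which encodes the self-glucosylating protein that primes glycogen synthesis, 0.74 with the zinc finger gene Tshz1 and 0.72 with 1110002L01Rik. Of the 5 neurons with Rab8a above the trough 3 were shared with each of them. Gyg, Tshz1 and 1110002L01Rik were above it in 1, 0 and 5 others. Spearman's rho with Rab8a was 0.75, 0.65 and 0.24 in the same order. Rab3c had an r of 0.84 with Prdx3, a mitochondrial peroxiredoxin, 0.69 with Csf1r, a microglial receptor, and 0.67 with Selenof, a selenoprotein of the endoplasmic reticulum. Prdx3 was above the trough in 4 of the 8 neurons with Rab3c above it and in 0 others.

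Rab3a, high in most neurons, was most like Prkar1a, a regulatory subunit of protein kinase A, at an r of 0.61, followed by 1700020I14Rik at 0.51 and Uqcrc1 of respiratory complex III at 0.49. Rab11a was most like Nedd8, a ubiquitin-like modifier, at 0.62, then Trim44 at 0.58 and Rabgap1, a Rab GTPase-activating protein, at 0.55. Rab11b was most like Ola1 (0.54), Wdr33 (0.53) and Cadm1 (0.51). Rab1a was most like the calcium release channel gene Itpr1 (0.54), Nap1l5 (0.54) and the stress-response transcription factor gene Atf4 (0.51).

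Rab14 was most like Sumo2, a ubiquitin-like modifier, at an r of 0.51, Apbb2 at 0.51 and Napa at 0.47. Napa encodes an adaptor that helps to take apart SNARE complexes after fusion. With group means subtracted these r were 0.33, 0.42 and 0.33. Napa was above the trough in 9 of the 13 neurons with Rab14 above it, and in 6 others. Between the EtOH groups, RFP-positive minus RFP-negative, Napa differed by -3.66, with means of 5.16 ± 3.69 and 8.81 ± 3.08. Against PBS neurons, RFP-negative EtOH neurons had a Napa difference of 2.93. Napa was picked for its likeness to Rab14 over these same neurons, so its group differences are not independent of that choice.

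Genes that work with the Rabs were followed in lists of regulators, effectors, SNARE and release genes, and coats and adaptors. Of the 39 listed regulators 5 were in the table. Between RFP-positive and RFP-negative EtOH neurons, 2 had higher and 3 lower means, with a median of -0.05. The largest differences were those of Rabgap1, at -2.06, and of Gdi2, a GDP dissociation inhibitor, at 0.63. The direction was not stable: with group medians 4 of the 5 were higher and Rabgap1 differed by 0.32, and with arithmetic means 0 were higher. Between RFP-negative EtOH and PBS neurons, 4 of the 5 had lower means, with a median of -1.12. Rabgap1 differed by 2.46 and Rab3gap2, a subunit of the complex that acts on Rab3, by -2.33, and 1 of 7 EtOH against 4 of 6 PBS neurons had Rab3gap2 above the trough. Between RFP-positive EtOH and PBS neurons 4 of the 5 had lower means, with a median of -0.88. Rab3gap2 differed by -2.39.

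Of 41 listed effectors 6 were in the table: Rab11fip2 and Rab11fip3, which bind Rab11, Gorasp2 and Bicd1, which act at the Golgi and in dynein transport, and Exoc3 and Exoc7 of the exocyst, which tethers vesicles at the plasma membrane. All 6 had higher means in RFP-positive than in RFP-negative EtOH neurons, as had 60% of all genes, with a median of 1.21 where all genes had 0.31. The largest difference was 2.10, for Bicd1, where 6 of 15 against 0 of 7 neurons exceeded the trough. That of Gorasp2 was 1.63, with 3 of 15 and 0 of 7 neurons. All 6 had lower means in RFP-negative EtOH than in PBS neurons, as had 51.5% of all genes. Their median was -1.77 and that of all genes -0.06. Exoc3 and Exoc7 differed by only -0.11 and -0.08, and Rab11fip2 and Rab11fip3 by -1.99 and -1.95. The latter 2 were above the trough in 0 of 7 EtOH neurons each, and in 2 of 6 and 1 of 6 PBS neurons. Their group medians differed by -0.41 and -0.93. With group medians 4 of the 6 effectors were lower here, with a median of -0.30. In the reporter comparison 6 of 6 were then higher, with a median of 0.59. After upper quartile scaling, which shifts effectors and all other genes alike to all-gene medians of -0.20 and 0.49, 5 of the 6 were higher in the first of these comparisons and 4 of the 6 lower in the second. Both comparisons draw on the same 7 RFP-negative EtOH neurons, where means of these genes lay between 1.69 and 3.15. Between RFP-positive EtOH and PBS neurons, 3 were higher and 3 lower, with a median of 0.09. Exoc3 differed by 0.99 and Rab11fip2 by -1.27.

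Of 43 listed SNARE and release genes 11 were in the table, and their medians were 0.21, -0.03 and -0.13 in the 3 comparisons in the same order. Each of these medians took the other sign without the neurons that stood apart, at -0.19, 0.13 and 0.10. Napa and Vamp2, a SNARE protein of synaptic vesicles, had the largest differences in the first 2 of them. Vamp2 was higher in RFP-positive than in RFP-negative EtOH neurons by 2.06, with means of 7.14 ± 2.08 and 5.08 ± 1.43, and lower in RFP-negative EtOH than in PBS neurons by a difference of -2.19. Between RFP-positive EtOH and PBS neurons, Snap25, another SNARE protein, differed by -0.92 and Ykt6 by 0.86. Of 31 listed coat and adaptor genes 10 were in the table, with medians of 0.78, -0.75 and 0.34. With group medians in place of means the first was -0.01, with 5 higher and 5 lower, and the last -0.33, with 1 higher and 9 lower. Without Gad1-high neurons the last was -0.34. Ap1b1, a subunit of the adaptor of Golgi clathrin coats, differed by 2.31 in the first comparison, Copb1 of the COPI coat by -2.11 in the second and Cope by -1.94 in the last. Cltb, Copb2 and Ap1b1 were next in the 3 comparisons, at 1.64, 1.23 and 1.57. By group medians Ap1b1 differed by -0.07 in both of the comparisons where it is named and Copb2 by -0.22.

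**Figure D5:**
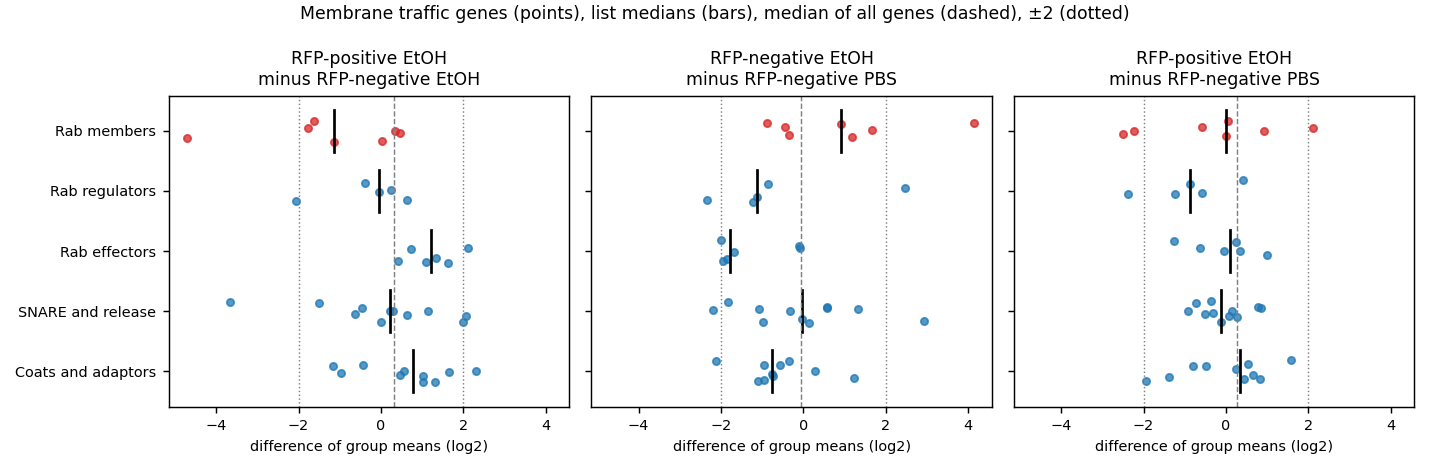
Difference of group means (log2) of each measured gene of the Rab members (red) and of the lists of membrane traffic genes (blue) in the 3 comparisons, with list medians as black bars, the median of all genes dashed and -2 and 2 dotted. The 6 effectors lie above 0 in the first comparison, as do 60% of all genes, and below 0 in the second, as do 51.5%. Their medians are 1.21 and -1.77. After upper quartile scaling, which moves all genes alike, 5 of 6 lie above 0 in the first and 4 of 6 below it in the second. With group medians 6 of 6 lie above 0 in the first and 4 of 6 below it in the second.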

How the data were processed

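Per the labels' protocols, cDNA of single neurons was made with a SMARTer Ultra Low kit, prepared with Nextera XT and read for 51 cycles; CASAVA 1.8 and the FASTX-Toolkit gave filtered reads. Per the submitters' processing notes, GRCm38, Bowtie2 and Cufflinks 2.2.1 were used. How the deposited log2 values were made from that output, their log base and the gene cut-off are not given in the sources used here, and the authors' values were taken as log2, and if the base differs all differences change by 1 factor. The design text counts 5 PBS neurons, but 6 are labelled and were used. The time course label of PBS samples mentions EtOH; titles and exposure labels were followed.

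Differences of group means were computed on the whole table of 1024 genes (pandas 2.3.3, numpy 2.4.6), with the step tested on simulated data. A difference of at least 2 was the call rule. The plan had no count model, and no p-values were computed, because no label names an animal. Gene models came from GENCODE M21, using the transcript with the longest coding sequence. Named genes were all members, the 2 genes of each list with the largest difference per comparison, the 3 genes most like each member and the cell type markers, of which those of interneurons (Gad1) and microglia (Csf1r and Cst3) were also measured and those of endothelial cells and blood had 0 genes in the table. Neurons with fewer than 5 values equal to another neuron's were those that stood apart. Members, lists and the trough were chosen with earlier results of these data known. Some genes that this rule names, and a list with 1 measured gene, are not reported here.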

Additional observations from a re-analysis of the deposited data

Results flagged for a closer look

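Of the 14 sets of member values in the groups of 7 and of 6 neurons, 1 held a value far from the rest. Rab14 was 1.49 in RFP-negative EtOH neuron 5, while the next value of its group was 6.81 and the highest 10.7, so that the gap was 0.58 of the range. The limit used flags about 1 in 20 sets of normally distributed values. The values here have several modes, so that rate need not hold for them.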

How the results depend on the processing

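No paired analysis was possible because the results come from no test and the shared replicate numbers only number single neurons. Of the 581 member differences recomputed under alternatives, single neurons left out included, 576 moved by less than the pooled SD and 5 by more. Among those 5, Rab8a gave -3.84 and -5.28 for RFP-positive EtOH against RFP-negative EtOH and PBS neurons, with arithmetic means. Rab11b gave -6.17 and -6.08 for the same comparisons with medians, and Rab14 gave -8.39 between EtOH groups with medians. The pooled SDs, from 1.62 to 3.75, exceeded most of the member differences, so this rule tells little about small ones. Of the differences past 2 log units 0 changed sign, but smaller ones did. Between EtOH groups Rab3a ran from -0.35 to 2.66 and Rab11a from -0.23 to 1.68 over the alternatives. For RFP-positive EtOH against PBS neurons Rab14 ran from -1.81 to 1.24.

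Counts changed as well. Both scalings add 1 constant per neuron and move all genes alike, and otherwise the cause was not tested. Between RFP-positive and RFP-negative EtOH neurons, members with a higher mean (3) were 0 after upper quartile scaling and 1 both without the neurons that stood apart and without neurons with Mbp above the trough, and ranged from 1 to 3 when single neurons were left out. Members lower by at least 2 (1, Rab14) were 2 with arithmetic means, medians or without Mbp-high neurons and 3 after upper quartile scaling, with a range of 1 to 2. With arithmetic means the 2 were Rab8a at -3.84 and Rab3c at -3.16, and Rab14, at -1.88, was not among them. Members higher by at least 2 (0) were 1 with medians. For RFP-negative EtOH against PBS neurons, members with a higher mean (4) ranged from 4 to 7. Members higher by at least 2 (1) were 4 with arithmetic means, 2 under both scalings and without the neurons that stood apart and 3 without Mbp-high neurons, with a range of 1 to 2; lower ones (0) were 1 without Gad1-high and 2 without Mbp-high neurons. For RFP-positive EtOH against PBS neurons, lower members (2) were 1 with arithmetic means, medians or without the neurons that stood apart and 0 with low values raised to the trough, with a range of 0 to 2. Higher ones (1) were 2 with arithmetic means or without Mbp-high neurons and 0 with medians, raised low values or without the neurons that stood apart, with a range of 0 to 1.

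Of all genes, 116, 199 and 99 differed by at least 2 in the 3 comparisons. With arithmetic means they were 491, 480 and 495, with low values raised 39, 86 and 37, and with a limit of 1 log unit 430, 518 and 452. Medians gave 180 between the EtOH groups and 162 for RFP-positive EtOH against PBS neurons, where the set without the neurons that stood apart gave 154. Neurons with Mbp below the trough gave 358 and 381 in the comparisons with PBS, where 2 PBS neurons remained. Restricted to genes above the trough in at least 50% of the neurons of either group, 85 of 305, 143 of 396 and 72 of 372 genes passed; a gene can enter through the group where it is high, so these counts are no background for the 3 members kept (Rab3a, Rab11b and Rab14). Unknown depth and 6 or 7 neurons in 2 of the groups limit what can be told. Counts and medians of the traffic gene lists under alternatives were added after seeing the data.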
